A study of Mus musculus with 12 samples.

Results

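The aminoacyl-tRNA synthetase genes were taken from the mouse kidney tables by name, as protein-coding genes called after an amino acid letter and "ars", with Farsa and Farsb included. The rule found 37 genes among the 41740 listed, of which 20 encode the cytosolic enzymes and 17, with names ending in 2, the mitochondrial enzymes. All 37 passed the minimum of 10 reads summed over the 12 libraries, a sum taken over both groups. Kidneys came from male wild-type C57BL/6NCrl mice whose age the sources used here do not give. Drinking water was withheld for 19 h in both groups. The RIAKI group (rhabdomyolysis-induced acute kidney injury, n = 6) then received 50% glycerol into the muscle of the left hind limb, and the control group (sham, n = 6) received saline. The injected volume was 0.05 ml for each 10 g of body weight, isoflurane was the anesthetic, Rimadyl was given against pain at 5 mg/kg at 0 and 3 h in both groups, and kidneys were taken at 24 h with 1 library per mouse. The comparison addresses which transcripts differ at the stage of beginning kidney failure.

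Each synthetase joins 1 amino acid to its tRNAs, and the charged tRNAs feed the ribosome. The enzymes fall into class I and class II, which differ in the fold of the catalytic domain. Cytosolic protein synthesis and the small translation system inside mitochondria mostly use separate synthetase genes, all of them nuclear. Gars and Kars serve both compartments from a single gene, Eprs charges both glutamate and proline tRNAs, and mitochondrial glutamine tRNA is charged by another route. When amino acids run short or the endoplasmic reticulum is stressed, the transcription factor ATF4 is known to induce many cytosolic synthetase genes in mouse cells.

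Total exon reads ran from 1579157 to 2073959 per library, and mitochondrial ribosomal RNA took 34.1% to 58.9% of them. The cytosolic synthetases together held 338 to 1170 reads per library and the mitochondrial ones 290 to 772, so single members rest on few reads. Replicates 1 and 2 of both groups lay apart from the other libraries on the second principal component, which held 9.37% of the variance. The unit of levels is CPM, which sets each library to the same TMM-corrected total, and differences are on the log2 scale, RIAKI relative to control, followed by the standard error (SE) of the fitted value. A gene is called higher or lower at an adjusted p below 0.05 by edgeR's quasi-likelihood test, adjusted after Benjamini and Hochberg over 13536 genes.

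Of the 20 cytosolic synthetase genes, 15 were higher in RIAKI kidneys and 0 were lower, whereas 17.4% of all genes tested were higher and 18.8% lower. All 20 had a log2 fold change above 0, from 0.06 for Dars to 1.54 for Wars, so that none was lower at an unadjusted p either, and the exact test of edgeR, DESeq2 and limma voom also gave 15 higher and 0 lower. Their median log2 fold change was 1.00, beside −0.01 for all genes tested. For 10 of the 20, the 6 RIAKI kidneys all lay above the 6 control kidneys, which held for 8.92% of all genes (10.4% lay below), and 0 of the 20 lay wholly below. With mitochondrially encoded genes left out of the library total, the 20 genes together took 837 to 1205 CPM, without TMM, in RIAKI and 503 to 610 CPM in controls. In whole kidney RNA, a change in the share of a cell type and a change of RNA per cell cannot be told apart. Without replicates 1 and 2 of both groups, 13 of the 15 calls held, and Farsb (log2 fold change 0.65, adjusted p = 0.137) and Vars (1.06, adjusted p = 0.0873) were no longer called.

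**Figure D1:**
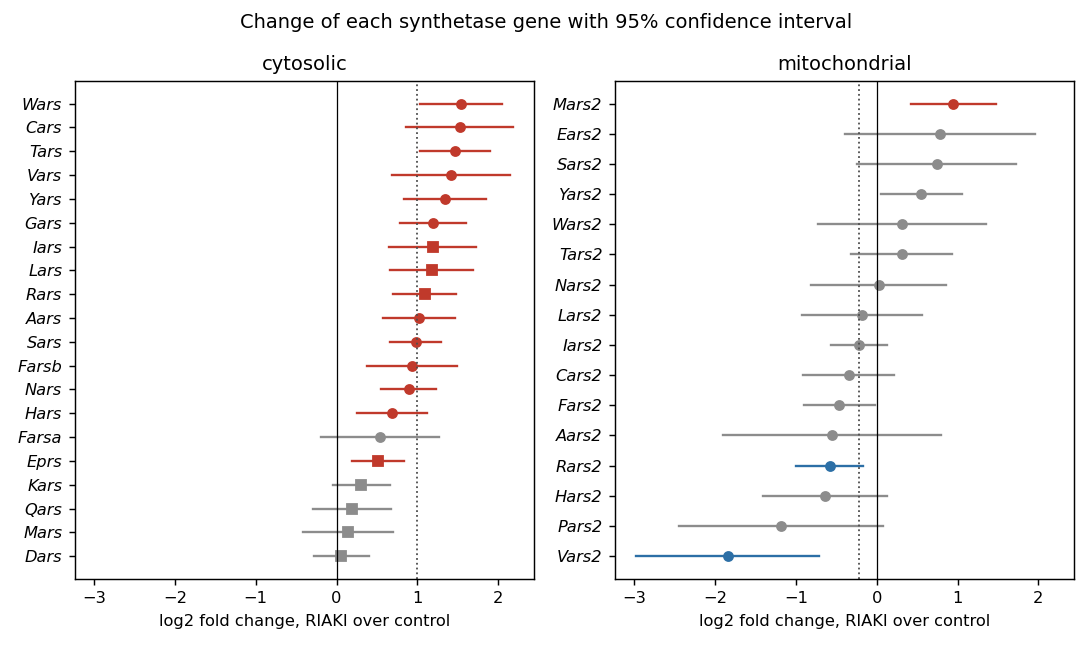
Log2 fold change of RIAKI over control for 20 cytosolic (left) and 16 mitochondrial (right) synthetase genes, with bars for the 95% confidence interval (n = 6 per group). Red marks genes called higher, blue genes called lower and grey genes not called by edgeR's quasi-likelihood test, squares mark enzymes of the multisynthetase complex, and the dotted line is the median of all genes of the compartment, 1.00 for the cytosolic and −0.22 for the mitochondrial genes.

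The promoters of the synthetase genes were read for the DNA element that ATF4 binds with C/EBP partners, spelled TGATGNAA. RefSeq start-site windows of GRCm38.p6, from 250 bases before to 50 bases after the start, were matched for 27 of the 37 genes, 13 cytosolic and 14 mitochondrial. The element was present, on either strand, in 5 cytosolic windows, those of Aars, Gars, Iars, Tars and Yars, and in those of 0 of the 14 matched mitochondrial genes, beside 3.97% of all 32851 windows of the table. All 5 genes belong to the 8 matched cytosolic genes called higher, and 0 of the 5 matched cytosolic genes that were not called held it. These 5 windows are printed 5′ to 3′ on the strand of the gene, with the element in capitals, because they show where it lies. They are Aars at chr8:111033592-111033891 (plus strand), Gars at chr6:55037751-55038050 (plus), Iars at chr13:49681880-49682179 (plus), Tars at chr15:11399609-11399908 (minus) and Yars at chr4:129189653-129189952 (plus).
Aars: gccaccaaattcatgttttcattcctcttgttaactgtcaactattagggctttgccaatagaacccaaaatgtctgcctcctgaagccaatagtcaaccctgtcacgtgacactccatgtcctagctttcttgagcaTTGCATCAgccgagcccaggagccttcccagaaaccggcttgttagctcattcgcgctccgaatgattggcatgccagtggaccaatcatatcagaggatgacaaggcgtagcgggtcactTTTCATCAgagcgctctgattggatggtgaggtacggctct
Gars: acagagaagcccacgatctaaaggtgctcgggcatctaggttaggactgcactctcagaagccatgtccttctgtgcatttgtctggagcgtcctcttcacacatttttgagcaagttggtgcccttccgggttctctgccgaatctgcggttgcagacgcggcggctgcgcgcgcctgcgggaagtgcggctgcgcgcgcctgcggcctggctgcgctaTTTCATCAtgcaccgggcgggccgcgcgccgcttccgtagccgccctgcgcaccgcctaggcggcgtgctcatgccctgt
Iars: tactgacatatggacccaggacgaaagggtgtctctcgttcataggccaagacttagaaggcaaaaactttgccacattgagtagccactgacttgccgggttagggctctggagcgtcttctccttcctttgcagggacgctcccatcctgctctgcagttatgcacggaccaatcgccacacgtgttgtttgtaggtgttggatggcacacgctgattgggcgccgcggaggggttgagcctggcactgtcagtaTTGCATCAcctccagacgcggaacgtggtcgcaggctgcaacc
Tars: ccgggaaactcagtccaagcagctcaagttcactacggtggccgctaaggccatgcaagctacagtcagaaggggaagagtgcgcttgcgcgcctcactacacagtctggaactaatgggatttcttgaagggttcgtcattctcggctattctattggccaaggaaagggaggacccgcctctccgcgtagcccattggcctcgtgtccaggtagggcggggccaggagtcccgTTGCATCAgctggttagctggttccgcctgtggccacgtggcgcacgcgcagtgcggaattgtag
Yars: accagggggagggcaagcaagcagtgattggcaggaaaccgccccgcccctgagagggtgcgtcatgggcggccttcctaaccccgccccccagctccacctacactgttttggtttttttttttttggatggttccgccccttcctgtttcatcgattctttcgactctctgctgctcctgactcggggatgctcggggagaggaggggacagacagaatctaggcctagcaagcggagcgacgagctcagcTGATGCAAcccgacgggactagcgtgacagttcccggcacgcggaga

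With the first base of the RefSeq transcript counted as 1, the capitals begin at −112 and at 10 in Aars, at −30 in Gars, at 8 in Iars, at −15 in Tars and at 4 in Yars. In Yars the element reads along the strand of the gene and in the other 4 windows it is the reverse complement, and each of these 5 genes carries 1 element except Aars. The E-box CACGTG, read on both strands, was present in the windows of Aars, Farsb, Iars, Tars and the mitochondrial Ears2, beside 7.15% of all windows. It thus lay in 4 of the 8 matched cytosolic genes called higher, 0 of the 5 not called and 1 of the 14 mitochondrial genes. This split is much like that of TGATGNAA and so is not particular to that element. The palindromic core of the NRF1 site, searched as a fixed string, was present for 0 of the 27 matched genes, beside 0.971% of all windows. A match is a stretch of letters and no measure of binding. Cars, Hars, Lars, Nars, Rars, Vars, Wars, Hars2 and Pars2 are among those not matched.

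Among the cytosolic enzymes that work outside the multisynthetase complex, 11 of 12 genes were higher in RIAKI, with a median log2 fold change of 1.11. Tars, the threonine enzyme (GRCm38 chr15:11382301-11399665, minus strand), lay at 13.7 to 18.5 CPM (median 16.9) in RIAKI and at 4.68 to 7.91 CPM (median 5.75) in controls (log2 fold change 1.47, SE 0.21, adjusted p = 2.10e-06, edgeR's quasi-likelihood test). Its groups stood clearly apart, with 181 reads against 66 in all, and its promoter is one of those shown. Wars (chr12:108860030-108894174, minus strand), the tryptophan enzyme and a known interferon gamma target in human cells, had the highest fold change of the cytosolic genes. It lay at 11.2 to 22.0 CPM (median 15) in RIAKI and at 2.44 to 7.49 CPM (median 4.96) in controls (log2 fold change 1.54, SE 0.25, adjusted p = 1.07e-05, edgeR). All 6 RIAKI kidneys were again above all 6 controls. Yars, the tyrosine enzyme, ranged from 8.75 to 19.2 CPM (median 13.5) against 2.82 to 7.02 CPM (median 5.95) (log2 fold change 1.34, SE 0.25, adjusted p = 6.01e-05, edgeR). Cars, the cysteine enzyme, ranged from 5.62 to 10.0 CPM (median 7.46) against 1.06 to 5.49 CPM (median 2.20) (log2 fold change 1.52, SE 0.32, adjusted p = 0.000383, edgeR). The groups did not overlap for either gene. Vars, the valine enzyme, rested on 73 reads in RIAKI and 27 in controls. It ranged from 1.67 to 10.0 CPM (median 6.84) in RIAKI and from 1.97 to 4.27 CPM (median 2.11) in controls (log2 fold change 1.42, SE 0.36, adjusted p = 0.00213, edgeR). Vars was high in 5 of the 6 RIAKI kidneys, while replicate 3 lay below every control.

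The remaining enzymes outside the complex belong to class II. Sars, the serine enzyme, whose tRNA pool also serves selenocysteine, lay at 47.4 to 80.3 CPM (median 63.7) in RIAKI and at 28.0 to 40.3 CPM (median 32.9) in controls. It was higher by 0.98 on the log2 scale (SE 0.16, adjusted p = 7.29e-06, edgeR), and the groups did not overlap. Gars, the glycine enzyme of both compartments, was the most even of these genes among RIAKI kidneys, at 16.9 to 19.8 CPM (median 18.2), against 6.35 to 12.2 CPM (median 7.15) in controls. It was higher by 1.19 on the log2 scale (SE 0.20, adjusted p = 1.85e-05, edgeR). Nars, the asparagine enzyme, lay at 41.4 to 65.6 CPM (median 48.2) against 20.1 to 32.2 CPM (median 29.7) (log2 fold change 0.89, SE 0.17, adjusted p = 7.03e-05, edgeR). The groups were separate for both genes. Aars, the alanine enzyme, lay at 14.9 to 35.5 CPM (median 27.3) against 6.57 to 16.2 CPM (median 13.3) (log2 fold change 1.02, SE 0.22, adjusted p = 0.000418, edgeR). RIAKI replicate 6 lay within the control range for Aars, and 71.5% of the Aars reads mapped to a single place, the gene overlapping Exosc6 on the same strand. On reads mapped to a single place, Aars was also called. Phenylalanine is charged by a tetramer of Farsa and Farsb chains. Farsb rose by 0.93 on the log2 scale (SE 0.27, adjusted p = 0.00787, edgeR), from 2.64 to 7.49 CPM (median 4.90) in controls to 6.87 to 13.9 CPM (median 9.27) in RIAKI. Farsa, on 44 and 31 reads, had a log2 fold change of 0.54 with a 95% confidence interval from −0.19 to 1.27 and was not called. Hars, the histidine enzyme, rose by 0.69 (SE 0.21, adjusted p = 0.0114, edgeR), with 4 of 6 RIAKI kidneys above the highest control.

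**Figure D2:**
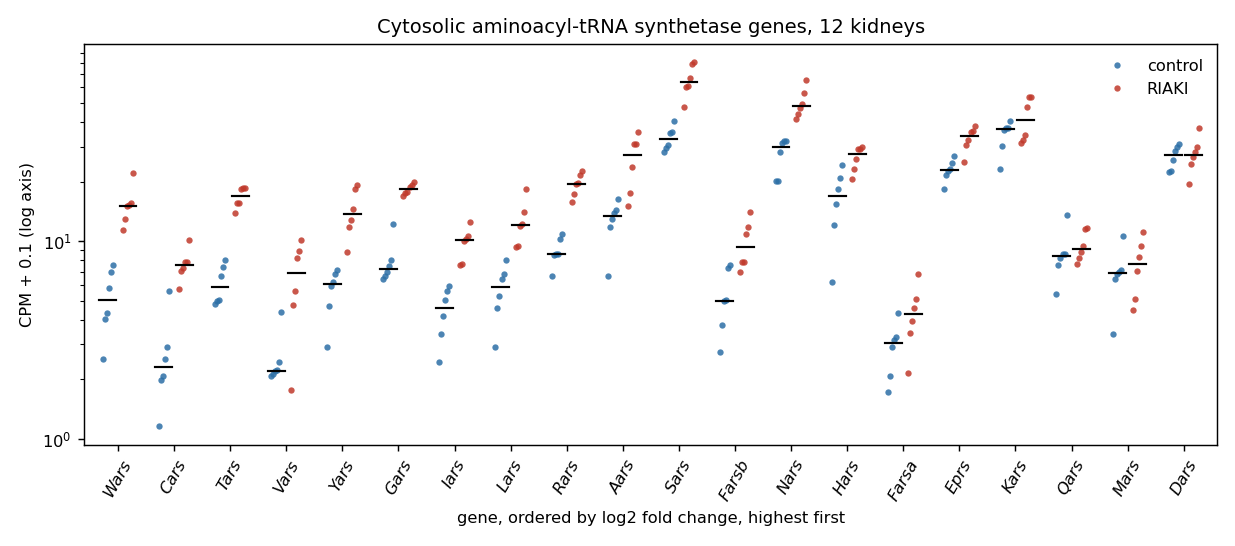
Levels of the 20 cytosolic synthetase genes in each kidney, in CPM + 0.1 on a log axis, with controls in blue, RIAKI in red and a black line at the median of each group of 6. The groups are separate for 10 genes, among them Wars, Tars and Sars, and overlap broadly at the right end, where Dars lay at 19.2 to 37.1 CPM in RIAKI and 22.3 to 31.0 CPM in controls.

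The multisynthetase complex holds 8 of the cytosolic enzymes, on 3 scaffold proteins. Of these 8 genes, 4 were higher in RIAKI (Iars, Lars, Rars and Eprs) and 4 were not called (Dars, Kars, Mars and Qars), and their median log2 fold change was 0.41. The difference from the enzymes outside the complex was not tested. Rars, the arginine enzyme, lay at 15.6 to 22.6 CPM (median 19.4) in RIAKI and at 6.57 to 10.8 CPM (median 8.50) in controls (log2 fold change 1.09, SE 0.19, adjusted p = 3.27e-05, edgeR). Lars, the leucine enzyme and in human cells a leucine sensor for mTORC1, lay at 9.21 to 18.2 CPM (median 12) against 2.82 to 7.88 CPM (median 5.74) (log2 fold change 1.18, SE 0.25, adjusted p = 0.000390, edgeR). Iars, the isoleucine enzyme, lay at 7.5 to 12.4 CPM (median 10.1) against 2.34 to 5.80 CPM (median 4.50) (log2 fold change 1.19, SE 0.26, adjusted p = 0.000590, edgeR). For these 3 genes every RIAKI kidney was above every control. Eprs, the bifunctional enzyme, rose less, from 18.3 to 26.9 CPM (median 22.8) in controls to 25.0 to 38.0 CPM (median 34.0) in RIAKI (log2 fold change 0.52, SE 0.16, adjusted p = 0.01, edgeR). The 4 genes without a call had intervals that limit the size of a change. The 95% confidence interval of the log2 fold change ran from −0.28 to 0.40 for Dars (aspartate), from −0.05 to 0.66 for Kars (lysine), from −0.29 to 0.67 for Qars (glutamine) and from −0.42 to 0.70 for Mars (methionine). The fitted values of Dars and Qars, at 0.06 and 0.19, changed sign under some of the alternatives. Mars overlaps Ddit3 on the opposite strand, and the sources used here do not state whether reads were counted by strand. All 3 scaffold genes were higher, Eef1e1 by 1.43 (SE 0.20), Aimp2 by 1.29 (SE 0.22) and Aimp1 by 0.51 (SE 0.17) on the log2 scale, with adjusted p-values of 1.19e-06, 1.74e-05 and 0.0225 (edgeR). Split by class over all 20 genes, 8 of 10 class I and 7 of 10 class II enzymes were higher, with medians of 1.18 and 0.91. The bifunctional Eprs was counted in class I alone.

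Of the 17 mitochondrial synthetase genes, 1 was higher (5.88%), 2 were lower (11.8%) and 14 were not called, shares below the 17.4% and 18.8% of all genes tested, and their median log2 fold change was −0.22. Mars2 (chr1:55237177-55248470, plus strand), the methionine enzyme whose product also starts mitochondrial translation, lay at 7.73 to 14.9 CPM (median 9.68) in RIAKI and at 3.17 to 7.22 CPM (median 5.72) in controls. It was higher by 0.95 on the log2 scale (SE 0.26, adjusted p = 0.00428, edgeR's quasi-likelihood test), and it was the 1 mitochondrial gene whose groups did not overlap. Rars2 (chr4:34614957-34660167, plus strand), the arginine enzyme, lay at 6.87 to 11.8 CPM (median 10.1) in RIAKI and at 11.6 to 17.9 CPM (median 13.8) in controls (log2 fold change −0.58, SE 0.20, adjusted p = 0.0245, edgeR). All 6 RIAKI kidneys were below the control median for Rars2, and the groups touched at their edges. The call was lost without RIAKI replicate 4 (−0.51, adjusted p = 0.0583), without control replicate 2 (−0.50, adjusted p = 0.0779) and with total counts as the only scaling (−0.52, adjusted p = 0.147). Vars2 (chr17:35655634-35667592, minus strand), the valine enzyme, lay at 0 to 1.67 CPM (median 0.683) in RIAKI and at 0.705 to 6.09 CPM (median 2.63) in controls, on 9 and 36 reads. Its log2 fold change of −1.84 (SE 0.55, adjusted p = 0.00924, edgeR) leaned on control replicate 2, which held 15 of the 36 reads, and without it was −1.47 (adjusted p = 0.0570). Without replicates 1 and 2 of both groups neither gene was called lower (Rars2, adjusted p = 0.130 and Vars2, adjusted p = 0.129).

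The other mitochondrial enzymes lay on both sides of 0. Yars2 (tyrosine) had a log2 fold change of 0.55 (95% confidence interval 0.05 to 1.05, adjusted p = 0.0784, edgeR), with all 6 RIAKI kidneys above the control median, and it was called without control replicate 1 (0.69, adjusted p = 0.0373). Fars2, the single-chain phenylalanine enzyme, had one of −0.46 (interval −0.90 to −0.03, adjusted p = 0.0927, edgeR) and was called lower without RIAKI replicate 3 (−0.56, adjusted p = 0.0484). Iars2, on 488 reads, was measured most tightly of those without a call, at −0.22 with an interval from −0.57 to 0.12. Aars2, Cars2, Hars2 and Pars2 had values between −1.19 (Pars2) and −0.35 (Cars2), and Ears2, Nars2, Sars2, Tars2 and Wars2 values between 0.03 (Nars2) and 0.78 (Ears2). Of these 9 genes, Cars2 and Tars2 had more than 100 reads over the 12 libraries, and the others 23 (Aars2) to 88 (Hars2), so that even a 2-fold change could lie inside some of the intervals, such as that of Hars2, from −1.41 to 0.13.

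**Figure D3:**
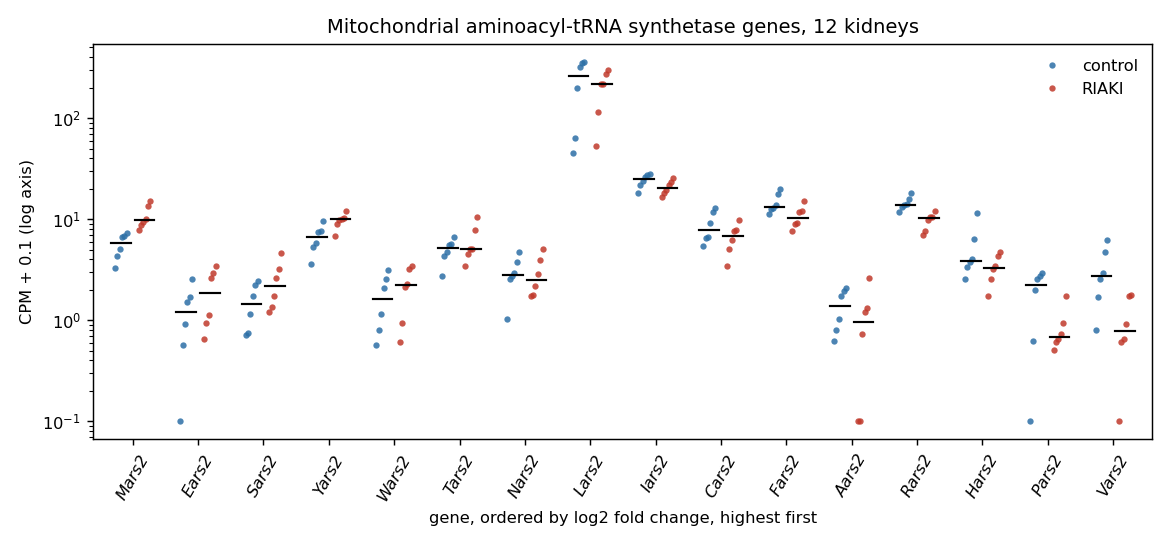
Levels of 16 mitochondrial synthetase genes in each kidney, in CPM + 0.1 on a log axis, with controls in blue, RIAKI in red and a black line at the median of each group of 6. Points at 0.1 are kidneys with 0 reads, Mars2 is the 1 gene with separate groups, and Lars2 spread from 45.5 to 359 CPM among controls alone.

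Lars2 (chr9:123366927-123462666, plus strand), the mitochondrial leucine enzyme, held 4213 of the 6312 reads counted on mitochondrial synthetase genes (66.7%) and varied more between kidneys of a group than between groups. It lay at 53.4 to 297 CPM (median 216) in RIAKI and at 45.5 to 359 CPM (median 258) in controls (log2 fold change −0.18, SE 0.36, adjusted p = 0.734, edgeR). The low kidneys were RIAKI replicate 1 at 53.4 CPM and replicate 6 at 116 CPM, and control replicates 2 and 1 at 45.5 and 62.8 CPM. In RIAKI replicate 1 and control replicate 2, mitochondrial ribosomal RNA also took the smallest share of reads of their groups, 34.1% and 36.6%. In RIAKI replicate 6 and control replicate 1 it took 48.3% and 43.5%, near the medians of their groups, 47.3% and 44.7%. Whether the measures are linked was not tested. Of the 4213 reads, 4211 mapped to a single place, but whether all of them came from Lars2 mRNA, and not from like sequence such as mitochondrial ribosomal RNA, was not tested, so the values are the reads assigned to the gene. Without replicates 1 and 2 of both groups, Lars2 was called lower (−0.55, adjusted p = 0.0254). The other 16 mitochondrial genes together took 188 to 259 CPM of the reads outside mitochondrially encoded genes in RIAKI and 202 to 252 CPM in controls, and these ranges overlapped.

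The cytosolic and mitochondrial enzyme of an amino acid were next set against each other inside each kidney, as the log2 ratio of their reads with 0.5 added to both. Depth and scaling cancel in it, except where a gene has so few reads that the added 0.5 weighs. This holds for Vars2, at 0 to 3 reads in each RIAKI kidney. Of 16 pairs with at least 30 reads in both genes, 9 had a higher ratio in RIAKI at an adjusted p below 0.05 and 0 a lower one, 9 also passing at an unadjusted p below 0.05 (2-sided exact permutation tests over all assignments of the 12 kidneys, smallest possible p = 0.00216). The ratio of Rars to Rars2 averaged 1.01 ± 0.30 over the RIAKI kidneys and −0.69 ± 0.32 over the controls (SD, n = 6 each), a difference of 1.70 (exact permutation test, adjusted p = 0.0115). Reads of Rars thus outnumbered those of Rars2 in every RIAKI kidney and were fewer in every control. For Cars over Cars2 the difference was 1.94 and for Farsb over Fars2 it was 1.39, with the same adjusted p and, as for Rars, groups that did not overlap. Vars over Vars2 differed by 2.72, Iars over Iars2 by 1.37, Hars over Hars2 by 1.32, Tars over Tars2 by 1.2, Farsa over Fars2 by 0.98 and Yars over Yars2 by 0.74, with adjusted p-values of 0.0139 to 0.0423 by the same exact permutation test. Farsa and Farsb share Fars2, and these reads are those of the tests above. Hars and Hars2 overlap each other on opposite strands, and Cars2 overlaps Naxd, Fars2 Lyrm4, Iars2 Rab3gap2, Ears2 Ubfd1, Farsb Sgpp2, Yars C77080 and Mars Ddit3 in the same way, so without known strand the reads of these pairs may include those of the neighbour. Among the pairs not called were Wars (1.29), Lars (1.14), Nars (0.88) and Sars (0.34) over their partners, and the 2 ratios with negative differences, Eprs over Ears2 (−0.20) and Mars over Mars2 (−0.81). Without RIAKI replicate 1, and likewise without replicate 2, 5 pairs were called. Over the alternatives run, Farsa over Fars2 lost its call in 9 and kept it in 7, and Yars over Yars2 lost it in 6 and kept it in 11. Hars over Hars2 and Vars over Vars2 lost theirs in 3 each, and the other called pairs in 1 each.

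**Figure D4:**
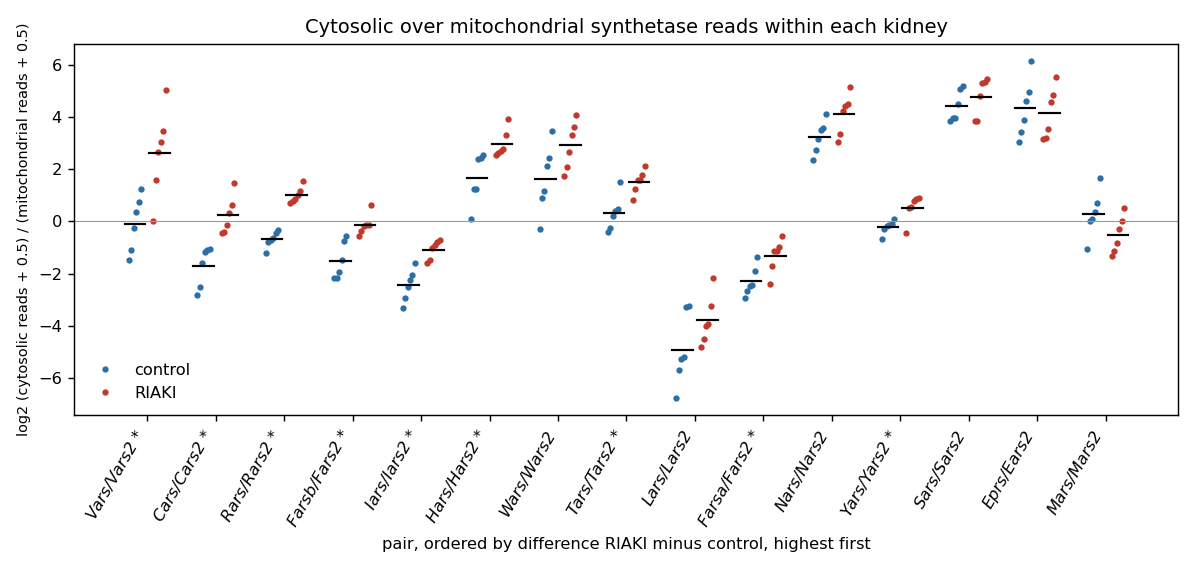
Log2 ratio of cytosolic to mitochondrial reads (0.5 added to both) in each kidney for 15 pairs, with controls in blue, RIAKI in red and a black line at the mean of each group of 6. An asterisk marks the 9 pairs with an adjusted p below 0.05 in the exact permutation test, and the grey line at 0 is equal reads, which Rars over Rars2 crosses from −0.69 to 1.01.

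Every RIAKI kidney showed the cytosolic pattern. Between 15 and 19 of the 20 cytosolic genes were above the control median in each RIAKI kidney, and 14 to 17 were above the highest control. The median of the 20 log2 ratios to the control mean was lowest in RIAKI replicate 4 (0.69) and highest in replicate 2 (1.16), and in single controls it ran from −0.15 to 0.09. Summed levels of the 20 genes were 371 to 477 CPM in RIAKI and 229 to 256 CPM in controls, without overlap. For the mitochondrial genes, 5 to 8 of 17 were above the control median in a RIAKI kidney and 2 to 5 were above the highest control. Their median log2 ratio ran from −0.44 to −0.08 in RIAKI and from −0.29 to 0.27 in controls. Such counts per kidney were not made over all genes.

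**Figure D5:**
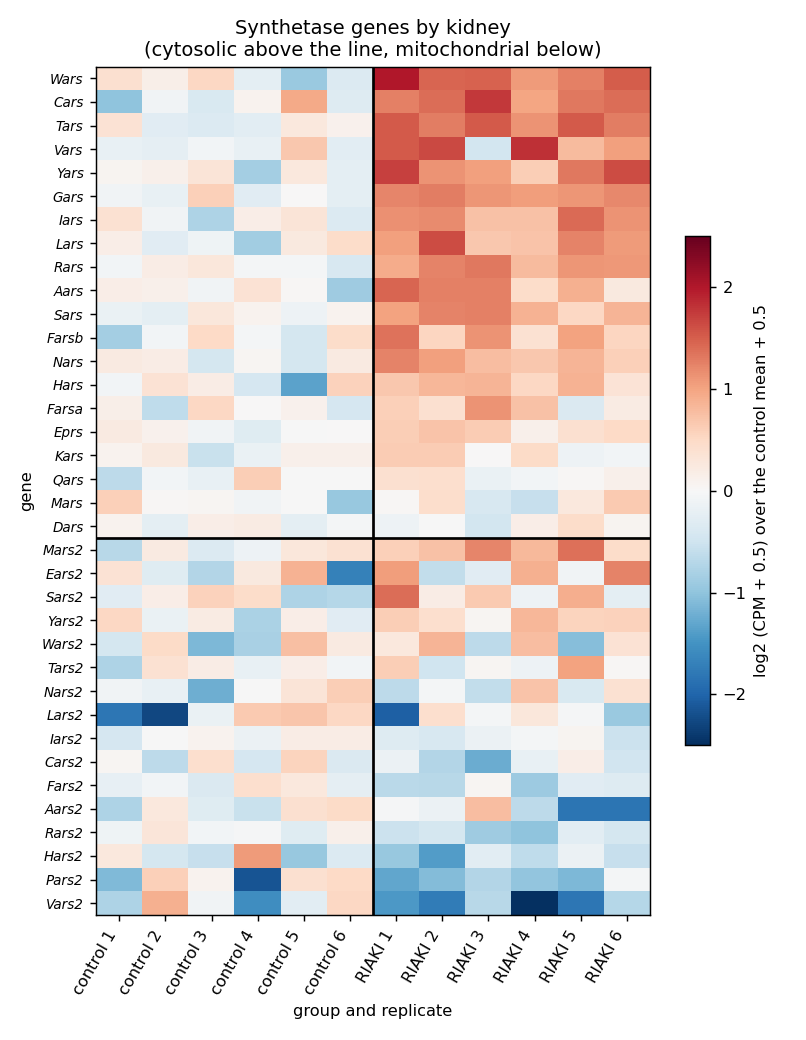
Log2 of each kidney's CPM + 0.5 over the mean of the 6 controls for 36 synthetase genes, with genes ordered by fold change inside each compartment and kidneys in columns. Red cells fill most of the cytosolic block in all 6 RIAKI columns, where the median per kidney was 0.69 to 1.16, and the mitochondrial block is mixed in both groups.

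Reads inside introns, counted apart from the exon reads and not used above, were few. Of the 23 synthetase genes with at least 10 intron reads, 14 are cytosolic, and 13 of these had a log2 fold change above 0 (median 0.75). By edgeR's quasi-likelihood test over 10182 genes, 0 of the 14 were called, beside 4.36% of all genes called higher, 5.3% called lower and 9.66% called either way, while 5 were higher at an unadjusted p below 0.05, beside 9.57% of all genes. These 5 were Farsa (1.69, adjusted p = 0.0512), Yars (1.34, adjusted p = 0.0550), Lars (0.71, adjusted p = 0.0890), Wars (2.07, adjusted p = 0.104) and Farsb (1.41, adjusted p = 0.159). Their intron reads in RIAKI and controls were 25 and 8 for Farsa, 36 and 15 for Yars, 111 and 75 for Lars, 14 and 3 for Wars, and 21 and 8 for Farsb. Over both compartments the exact test of edgeR gave the same count, 1 higher and 0 lower. That gene was the mitochondrial Iars2 (1.60, SE 0.52, adjusted p = 0.0276), which overlaps Rab3gap2 on the opposite strand. Its exon reads, at −0.22, were not called. The call was lost without control replicate 2 or 3, each of which left 0 genes.

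Around the synthetases, other parts of the tRNA and elongation machinery were read from the same fit, in which 17.4% of all genes were higher and 18.8% lower. Of 11 cytosolic elongation and termination genes tested, 7 were higher and 0 lower (median 0.55), and at an unadjusted p below 0.05, 8 were higher and 0 lower. The called genes were led by the elongation factor subunit Eef1g (0.80), the release factor Etf1 (1.01) and the recycling factor Abce1 (0.89). Of 66 genes of tRNA processing, modification and export, 21 were higher (31.8%) and 4 lower (6.06%, median 0.41). Among them were Wdr4, a subunit of the tRNA guanine methyltransferase (1.89), Thumpd1, a partner of tRNA acetylation (1.23), Rpp30, a subunit of RNase P (1.11), and Tyw3 of wybutosine synthesis (−1.80). RNA polymerase III, which transcribes the tRNA genes, had 4 of 24 genes higher (16.7%) and 2 lower (8.33%, median 0.18), a share of higher genes near that of all genes, with Polr3d at 1.46, Bdp1 at 0.81, Polr1d at 0.64 and Polr3e at −1.19. On the mitochondrial side, 1 of 14 translation factor genes was higher and 2 were lower (median −0.16), namely the recycling factor Mrrf (0.63), the elongation factor Tufm (−0.64) and Gatb (−1.15). Gatb is a subunit of the amidotransferase that makes the mitochondrial glutamine tRNA. Of 14 relatives of the synthetases outside the rule, 0 were higher, also at an unadjusted p below 0.05, and 2 were lower (median −0.15), Gatb again and Dtd1 (−0.94), which removes D-amino acids from tRNA.

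Targets and sensors of the amino acid response, the program in which synthetase genes are induced by ATF4, had 22 of 37 genes higher (59.5%, beside 17.4% of all genes) and 4 lower (10.8%, beside 18.8%), with a median log2 fold change of 1.25. The 3 with the smallest p-values were Eif4ebp1, a translational repressor (2.67, SE 0.14), the stress cytokine Gdf15 (3.62, SE 0.26) and the transcription factor Cebpb (2.09, SE 0.15). The lower gene with the smallest p-value was Cbs, of cysteine synthesis (−2.06, SE 0.23). Of 21 interferon gamma targets, a list set beside Wars, 0 were higher by edgeR's quasi-likelihood test (1 at an unadjusted p below 0.05) and 2 were lower (median −0.31). The 2 were Irgm1 (−0.59) and Cxcl9 (−3.17, SE 0.91). Cxcl9 lay near the floor, at a mean of 0.0859 CPM in RIAKI and 1.46 CPM in controls. Other genes of the list were also at low levels, which limits what these counts can show.

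Transcript levels of many cell type markers differed between the groups, and in whole kidney RNA they do not measure cell numbers alone. All 16 proximal tubule markers were lower (summed level 480 to 745 CPM in RIAKI and 2246 to 2863 CPM in controls), as were 4 of 5 markers of the thick ascending limb, 3 of 4 of the distal convoluted tubule and 5 of 9 of the collecting duct. Of 11 injured tubule markers, 10 were higher (4675 to 6474 CPM against 461 to 530 CPM). Neutrophil markers summed to 17.6 to 50.0 CPM against 2.12 to 5.25 CPM, with Ly6g and Mmp9 at 0 in all libraries, and 3 of the 4 tested were higher. Macrophage markers summed to 29.9 to 54.1 CPM against 25.6 to 37.2 CPM (1 of 7 higher, 1 lower), and lymphocyte markers to at most 5.49 CPM (0 of 1 tested called, also at an unadjusted p below 0.05). Of the remaining lists, 0 of 7 endothelial markers were called (0 at an unadjusted p below 0.05), 1 of 5 podocyte markers was higher, 3 of 7 fibroblast and mural markers were higher and 2 lower, and 4 of 5 erythroid markers were lower. The part of these shifts in the synthetase levels was not tested.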

How the data were processed

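RNA of 12 kidneys, 6 RIAKI and 6 control, was measured with the QIAseq UPX 3′ kit, 1 library per mouse. The authors demultiplexed the reads with bcl2fastq2, trimmed and deduplicated them by unique molecular index in CLC Genomics Workbench 21.0.4, mapped them to GRCm38 and assigned them to Ensembl genes. The deposited values used here are whole-number read counts per gene over exons (Total exon reads), not normalized, with intron counts and single-place counts in further columns. Levels were not ranked between genes, and single-place shares were used to name uncertain genes. The deposited TPM columns were not used. The values of 1 mitochondrial synthetase gene and 1 marker gene are not reported here, while the counts and medians include them.

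Genes with at least 10 counts summed over 12 libraries (13536 of 41740) were scaled by TMM and compared with edgeR 4.0.16 (quasi-likelihood test, R 4.3.3), without covariates, at an adjusted p below 0.05 (Benjamini-Hochberg). Intron counts were treated alike. Pair ratios were compared by 2-sided exact permutation tests in scipy 1.17.1. The scripts were tested on simulated data. The paper names the exact test of edgeR, which was an alternative, as were DESeq2 1.42.0, limma 3.58.1 (voom), other scalings and filters, single-place counts, a replicate block, stricter thresholds and leaving out each library. Labels give no batch and no link between mice of the same number. Total counts of 1579157 to 2073959 per library limit the precision of genes with few reads. The p-values of edgeR weigh the difference between groups against the variation between libraries, 1 per mouse.

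The synthetase genes, the companion lists and the tests were chosen with earlier results of these data known. Called members were given with levels and full statistics, up to 14 cytosolic and 8 mitochondrial by smallest p, and are ordered here by role. From each companion list the 3 called members with the smallest p in the direction of most calls, and 1 in the opposite one, were named, or any member of lists of 6 or fewer. Gene coordinates and promoter windows are GRCm38, the windows from RefSeq (GRCm38.p6).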

Additional observations from a re-analysis of the deposited data

Results flagged for a closer look

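In 3 of 74 sets of 6 kidneys (37 genes in each group), 1 kidney stood far from the other 5 by Dixon's test, which chance flags in about 1 in 20 groups. Gars lay at 12.2 CPM in control replicate 3, on 26 reads, while the other controls lay between 6.35 and 7.94 CPM. This control was still below every RIAKI kidney. Vars lay at 4.27 CPM in control replicate 5, on 7 reads, and the other controls between 1.97 and 2.34 CPM. Pars2 lay at 1.66 CPM in RIAKI replicate 6, on 3 reads, and the other RIAKI kidneys between 0.408 and 0.837 CPM.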

How the results depend on the processing

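The count of cytosolic synthetases called higher stayed between 13 and 15 and the count called lower at 0 under all alternatives run, and 11 of the 15 genes kept their call in each alternative in which they were fitted. Vars and Farsb lost it without replicates 1 and 2 of both groups, Eprs and Hars at an adjusted p under 0.01, and Eprs also with a fold change of at least 1.5. No called gene changed direction. The count of mitochondrial genes called lower was 1 in place of 2 with total counts only, with a filter of at least 10 reads in at least 6 libraries, at an adjusted p under 0.01, with a fold change of at least 1.5, and (Lars2, in place of Rars2 and Vars2) without replicates 1 and 2 of both groups, an alternative chosen after the data were seen. Leaving out 1 library at a time gave 0 to 3 mitochondrial genes lower, 1 to 2 higher, 5 to 11 pairs called and 0 to 2 synthetases with higher intron reads. With the replicate number as a block, edgeR again called 15 cytosolic genes higher, 1 mitochondrial gene higher and 2 lower, but sign flips of the paired ratios (64 assignments) called 0 of the 16 pairs, a test whose smallest p of 0.0312 passes the adjustment only where at least 11 pairs reach it, with the differences themselves unchanged. Whether the numbers pair the mice is not stated by the labels, and correlations between kidneys cannot settle it. Correlations of same-numbered deviations ran from −0.169 to 0.322. RIAKI replicates 1 and 4 correlated best with the control of their own number, and the other RIAKI kidneys with another control. No scaling moved the median of all genes by more than 0.06. Depth limits the mitochondrial genes most, of which 9 had fewer than 100 reads. The cause of these differences was not tested.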
